A study of Homo sapiens with 6 samples.

Results

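The matrix metalloproteinases and their tissue inhibitors were examined through 10 genes of the deposited expression table, chosen by gene symbol: the proteases MMP1, MMP2, MMP3, MMP11, MMP14, MMP16 and MMP19, and the inhibitors TIMP1, TIMP2 and TIMP3. They are 10 of 23754 features in the table, 7 proteases and 3 inhibitors. RNA came from IMR-90, an established line of human fetal lung fibroblasts, carrying a lentiviral Tet-pLKO-puro vector from which doxycycline (DOX) switches on a short hairpin RNA against ZNF469, a zinc finger protein studied here for its part in lung fibrosis. The 3 DOX+ libraries (Sh-ZNF469 in the labels) came from cells given 2 µg/mL DOX for 4 days, and the 3 DOX- libraries (Control in the labels) from non-induced cells. By the study's methods both groups shared the vector, the hairpin named sh-2 and the puromycin selection, whereas the labels give the control genotype as Wild-type. The sequencing used 1 cell line and 1 hairpin, and every DOX+ library received both DOX and the induced hairpin, so their effects cannot be told apart. The submitted description calls the libraries technical replicates, so p-values measure the spread between these libraries, which may be technical.

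Matrix metalloproteinases (MMPs) are zinc-dependent endopeptidases that cleave collagens and other components of the extracellular matrix, are made as inactive proenzymes, and act outside the cell or at its surface. The tissue inhibitors of metalloproteinases (TIMPs) bind the active site of these enzymes, and TIMP2 also has a role in activation, because MMP14 on the cell surface uses it to capture and cleave proMMP2. Lung fibroblasts secrete both families, and the balance between them is commonly discussed in lung fibrosis as a determinant of how much collagen is removed. Only transcripts were measured here, not protein, activation or enzyme activity.

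Libraries held 34057675 to 36120260 counts. ZNF469 was lower in the DOX+ group, with 67.5% of its transcript remaining (log2 fold change -0.57, adjusted p = 3.31e-05). Adjusted p-values are those of the edgeR quasi-likelihood test, corrected by the Benjamini-Hochberg method for all 13991 features tested. Within a group, the chi-square between library pairs was 4.52 to 8.25 times its degrees of freedom, and across groups 12.3 to 21.9 times, so all 6 were distinct libraries. The highest values in both ranges involved DOX+ replicate 2. The 8 fibroblast markers summed to 8478 to 8540 FPKM (fragments per kilobase of transcript length, scaled to library size) in DOX- and 7261 to 7348 FPKM in DOX+. Of the 8, COL1A1, COL1A2, COL3A1, DCN and LUM fell (DCN to 88.0% of DOX-, adjusted p = 0.0056, and LUM to 86.1%, adjusted p = 0.0499, by edgeR), and VIM, PDGFRB and THY1 did not pass the test, with log2 fold changes of -0.02, -0.02 and 0.04. Of the defining markers of other cell types, KRT5, SFTPC, PECAM1, CDH5 and MARCO were at 0 counts in all libraries. The 4 epithelial markers summed to at most 0.223 FPKM, the 3 endothelial markers to at most 0.0876 FPKM and the 2 smooth muscle markers to 0.464 to 0.560 FPKM in DOX- and 0.563 to 0.685 FPKM in DOX+. The 4 leukocyte and macrophage markers summed to 29.4 to 32.4 FPKM in DOX- and 29.6 to 32.3 FPKM in DOX+, and CD68, a lysosomal protein that fibroblasts can also express, was the only 1 of the 4 with enough counts to be tested.

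Promoter windows of 300 bases, 250 before to 50 after the start of transcription, were matched by symbol in RefSeq (GRCh38.p14) for 4 of the 10 genes, MMP11, MMP14, TIMP1 and TIMP3. The windows of TIMP1 and MMP14 are printed because these were the inhibitor and the protease of the highest level. They lie at chrX:47582186-47582485 and chr14:22836335-22836634, both on the plus strand, and run 5′ to 3′ in lower case, with a match to the ETS motif in capitals.
TIMP1: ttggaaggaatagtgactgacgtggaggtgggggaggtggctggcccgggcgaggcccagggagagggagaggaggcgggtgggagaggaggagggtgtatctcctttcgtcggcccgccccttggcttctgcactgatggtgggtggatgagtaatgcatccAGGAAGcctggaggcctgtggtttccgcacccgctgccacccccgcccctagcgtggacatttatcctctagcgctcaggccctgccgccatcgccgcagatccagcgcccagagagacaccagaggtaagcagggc
MMP14: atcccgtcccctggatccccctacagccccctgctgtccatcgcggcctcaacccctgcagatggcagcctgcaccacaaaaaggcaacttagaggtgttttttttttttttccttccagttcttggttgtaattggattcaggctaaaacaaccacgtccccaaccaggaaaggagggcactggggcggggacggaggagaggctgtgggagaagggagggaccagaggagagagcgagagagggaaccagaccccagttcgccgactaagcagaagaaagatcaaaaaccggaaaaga
Many MMP promoters are described as driven by AP-1 and ETS transcription factors. Both strands were searched for the AP-1 motif (TGAGTCA or TGACTCA) and for an ETS motif (AGGAAG or CTTCCT), which do not overlap each other. The AP-1 letters were in 0 of the 4 windows, against 4.92% of all 27305 RefSeq windows. The ETS letters were in 1 of the 4, that of TIMP1, where AGGAAG begins 87 bases before the start, against 33.7% of all windows. These are matches of letters in a short window and say nothing of factor binding. Sites that differ from the letters given were not searched, so 0 matches does not mean that a window lacks an AP-1 site.

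The genes lie on 8 chromosomes of GRCh38 (GENCODE 44). MMP1 (ENSG00000196611, chr11:102789401-102798160) and MMP3 (ENSG00000149968, chr11:102835801-102843609) are neighbours on the minus strand. MMP2 (ENSG00000087245) lies at chr16:55389700-55506691, MMP11 (ENSG00000099953) at chr22:23768226-23784316 and MMP14 (ENSG00000157227) at chr14:22836560-22849041, all on the plus strand. MMP16 (ENSG00000156103, chr8:88032011-88328025) and MMP19 (ENSG00000123342, chr12:55835433-55842966) are on the minus strand. TIMP1 (ENSG00000102265, chrX:47582408-47586789, plus strand) lies inside SYN1 and TIMP3 (ENSG00000100234, chr22:32801705-32863041, plus strand) inside SYN3, each on the opposite strand, and TIMP2 (ENSG00000035862, chr17:78852977-78925387, minus strand) shares exonic bases with CEP295NL. The overlapping genes had few counts beside the inhibitors, at most 127 for SYN1, 13 for CEP295NL and 0 for SYN3 in any library. CEP295NL lies on the same strand as TIMP2. WTAPP1 shares exonic bases with MMP1 and MMP3, and TMEM198B with MMP19, in each case from the other strand. Use of strand in counting is not given in the sources used here, so reads of such pairs cannot be told apart.

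TIMP1 and TIMP2 were the most abundant of the 10 genes, followed by MMP14 and MMP2. Levels were compared between genes as FPKM, which is scaled to length, averaged over the 6 libraries. TIMP1, a secreted inhibitor, had 827 FPKM and ranked 49 among the 13991 features tested, and TIMP2 had 383 FPKM and ranked 151. The membrane-anchored collagenase MMP14 followed with 190 FPKM (rank 288), then the gelatinase MMP2 with 157 FPKM (rank 365), the matrix-bound inhibitor TIMP3 with 74.5 FPKM (rank 800) and the interstitial collagenase MMP1 with 42.8 FPKM. MMP19 had 11.5 FPKM. The lowest levels were those of MMP11 (stromelysin 3) with 2.17 FPKM, the membrane-type MMP16 with 1.63 FPKM and MMP3 (stromelysin 1) with 0.854 FPKM. In this order only the neighbours MMP11 and MMP16 overlapped over the libraries, and every other neighbouring pair was separated in all 6.

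**Figure D1:**
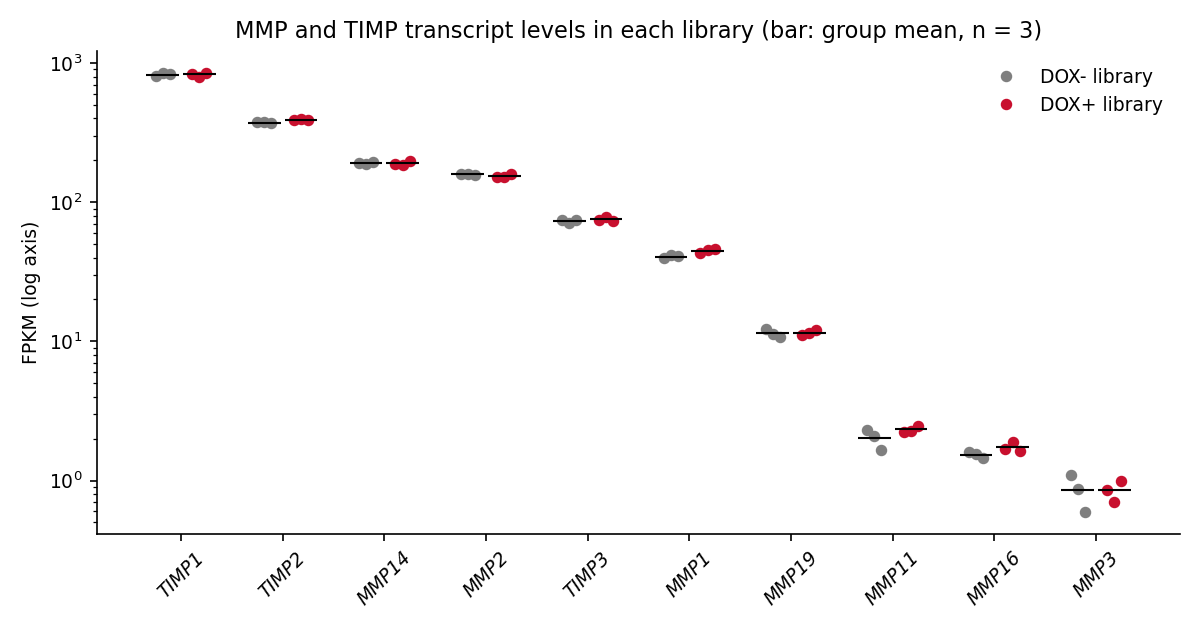
Level of each of the 10 genes in every library, as FPKM on a log axis, with DOX- and DOX+ libraries drawn apart. The inhibitors TIMP1 and TIMP2 are the highest of the 10 and MMP3 the lowest, a span from 827 to 0.854 FPKM. Libraries spread more for the low genes MMP3 (0.597 to 1.10 FPKM) and MMP11 (1.66 to 2.48 FPKM) than for TIMP1 (794 to 852 FPKM).

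After induction of the hairpin, 0 of the 10 genes passed an adjusted p of 0.05 in edgeR, where 1.12% of the features tested did. Together with an absolute log2 fold change over 1, 0 of the 10 passed, where 6 of 13991 features (0.0429%) did. DESeq2 and limma-voom also called 0 of the 10 by adjusted p, where they called 3.18% and 1.10% of all features. For adjusted p and fold change together, the study reports many more genes than edgeR gave here. The cause of this difference was not tested. At an unadjusted p under 0.05 each of the 3 tools gave the same 2 genes, MMP1 higher and MMP2 lower in DOX+, where edgeR and limma-voom each gave 15.0% of all features and DESeq2 13.8%. In counts scaled to library size (CPM), the groups did not overlap for 4 of the 10 genes, where 20.3% of all features did not. Of the 4, MMP1, MMP16 and TIMP2 were higher in DOX+, where 9.73% of features were, and MMP2 was lower, where 10.6% were. All 10 passed the filter on low counts. Of them 5 were nominally higher and 5 lower in DOX+, with a median log2 fold change of -0.0127 against -0.0019 over all features, and a median absolute value of 0.0442 against 0.0847. In bulk RNA, fewer cells expressing a gene and less RNA per cell cannot be told apart.

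**Figure D2:**
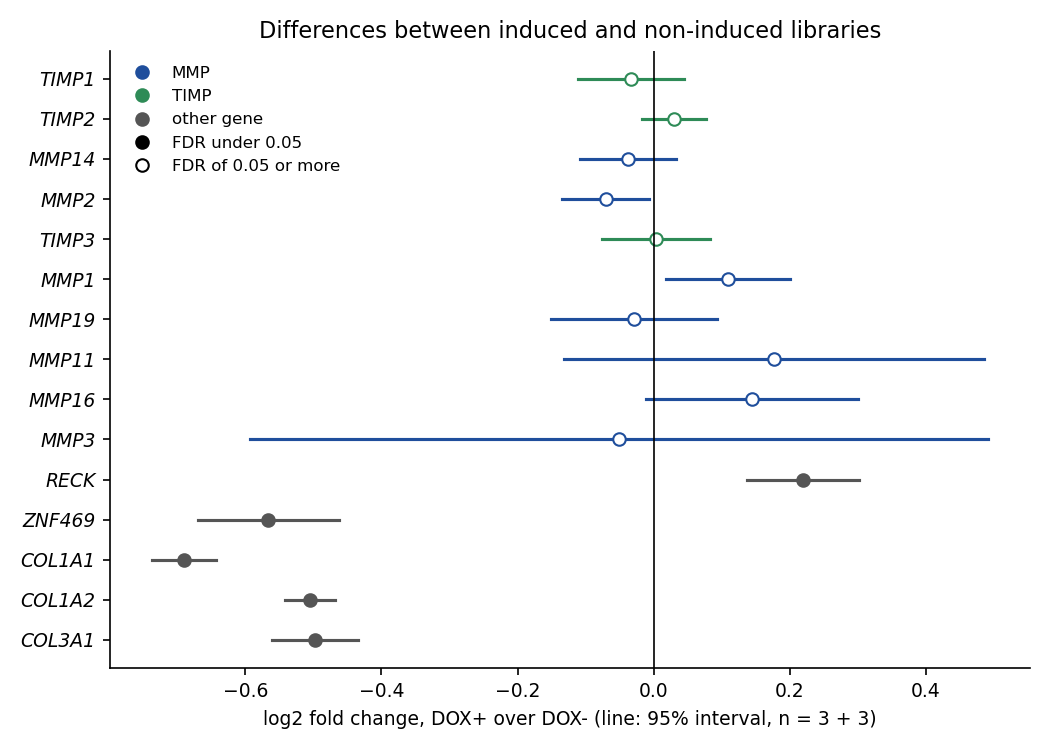
Log2 fold change of DOX+ over DOX- for each of the 10 genes, as points with 95% intervals from edgeR's quasi-likelihood fit. The intervals of MMP1 (0.02 to 0.20) and MMP2 (-0.14 to -0.01) do not reach 0 before adjustment, and that of MMP3 (-0.59 to 0.49) is the widest.

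MMP1 was nominally higher after induction, without passing the test across all features. MMP1 cleaves fibrillar collagens at a single site within the triple helix. In CPM, scaled with TMM factors, it had 86.2, 90.5 and 90.4 in DOX- replicates 1, 2 and 3, and 93.5, 95.8 and 98.8 in DOX+ replicates 1, 2 and 3. All 3 DOX+ libraries were above all 3 DOX- libraries. The means were 89.0 ± 2.48 CPM in DOX- and 96.0 ± 2.67 CPM in DOX+ (SD, n = 3 each), a log2 fold change of 0.11 (SE 0.0423, 95% interval 0.02 to 0.20). The unadjusted edgeR p was 0.023 and the adjusted p 0.245, and an exact two-sided permutation test gave 0.1, the smallest value that 3 libraries against 3 allow. The unadjusted edgeR p was 0.0958 without DOX- replicate 1 and 0.0855 without DOX+ replicate 3.

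The MMP1 gene sits in a cluster of 9 MMP genes within 435.2 kb on chromosome 11, which also holds the related collagenases MMP8 and MMP13 and the stromelysins MMP3 and MMP10. Transcripts of the cluster were almost all from MMP1, with 19564 counts over the 6 libraries, 97.7% of the cluster's total. MMP3 had 402 counts, or 2.01%. Of the others, MMP10 had 46 counts, MMP8 had 6, MMP12 and MMP13 had 2 each, and MMP7, MMP20 and MMP27 had 0. Of the collagenases in the cluster, MMP1 was thus the only 1 with more than 6 counts over the 6 libraries.

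**Figure D3:**
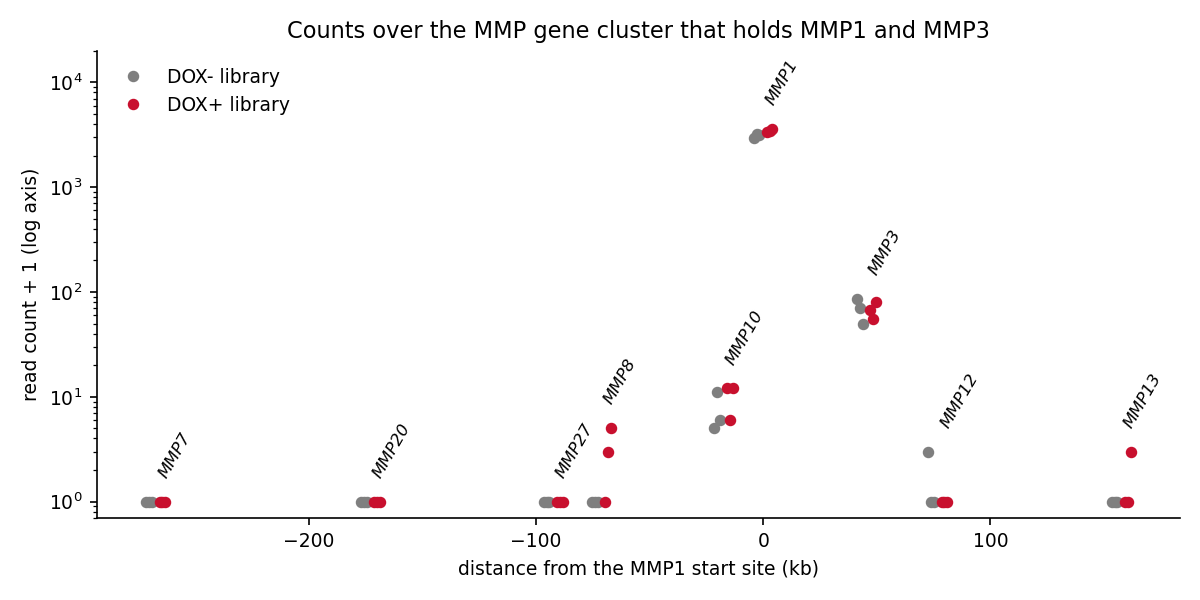
Counts of the 9 MMP genes in the chromosome 11 cluster in each library, plotted against distance in kb from the MMP1 start site. MMP1 has 2918 to 3578 counts in every library, MMP3 has 48 to 84, and no other gene of the cluster exceeds 11.

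MMP3, which cleaves proteoglycans and activates proMMP1, had too few reads for a precise comparison. Its counts were 84, 69 and 48 in DOX- replicates 1, 2 and 3 and 67, 54 and 80 in DOX+ replicates 1, 2 and 3. The groups overlapped fully, and the coefficient of variation of 28.5% within DOX- exceeded the 12.2% that counting alone gives. The log2 fold change was -0.05 with a 95% interval from -0.59 to 0.49 (adjusted p = 0.948, edgeR), and it became 0.16 without DOX- replicate 1 and 0.08 without DOX+ replicate 2, so no direction was detectable at this depth.

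The gelatinase MMP2 was nominally lower after induction, again without passing the test. MMP2 degrades denatured collagen and type IV collagen. It had 657, 652 and 659 CPM in DOX- replicates 1, 2 and 3 and 621, 608 and 644 CPM in DOX+ replicates 1, 2 and 3. In CPM all DOX- libraries lay above all DOX+ libraries, whereas in FPKM the groups overlapped, at 157 to 160 FPKM in DOX- and 152 to 159 FPKM in DOX+. The coefficient of variation in CPM within DOX-, 0.519%, was below the 0.663% that counting alone gives. The means were 656 ± 3.41 CPM and 625 ± 17.9 CPM (SD, n = 3 each), a log2 fold change of -0.07 (SE 0.0298, 95% interval -0.14 to -0.01), with an unadjusted edgeR p of 0.0336 and an adjusted p of 0.287. The unadjusted edgeR p was under 0.05 in 1 of the 6 fits that left out a library, that without DOX+ replicate 3 (0.0128), and reached 0.101 without DOX+ replicate 2, where the log2 fold change was -0.05. The exact permutation test gave 0.1.

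The membrane-type enzymes MMP14 and MMP16 differed in level and in separation. MMP14, which acts on collagen at the cell surface and activates proMMP2, had 786, 772 and 810 CPM in DOX- replicates 1, 2 and 3 and 768, 741 and 798 CPM in DOX+ replicates 1, 2 and 3. The groups overlapped, and the log2 fold change was -0.04 (SE 0.0326, 95% interval -0.11 to 0.03, adjusted p = 0.636 by edgeR). Without DOX+ replicate 2 it was -0.0103, without DOX- replicate 3 -0.0184 and without DOX+ replicate 3 -0.0639. MMP16 had 20.5, 19.7 and 18.9 CPM in DOX- replicates 1, 2 and 3 and 21.2, 23.4 and 20.6 CPM in DOX+ replicates 1, 2 and 3. Its groups did not overlap but were nearly touching, with DOX+ replicate 2 the highest library. The log2 fold change of MMP16 was 0.14 (SE 0.0721, 95% interval -0.01 to 0.30, adjusted p = 0.372 by edgeR), and it was 0.09 without that library.

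MMP11 and MMP19 overlapped between the groups. MMP11, which is unusual among secreted MMPs in being activated inside the cell by furin, ranged from 4.24 to 5.85 CPM in DOX- and from 5.61 to 6.19 CPM in DOX+. Its log2 fold change of 0.18 had a wide 95% interval, from -0.13 to 0.48 (adjusted p = 0.604, edgeR), and was 0.06 without DOX- replicate 3 and 0.28 without DOX- replicate 1. MMP19 ranged from 29.9 to 32.0 CPM in DOX- and from 29.3 to 31.5 CPM in DOX+, with a log2 fold change of -0.03 (95% interval -0.15 to 0.09, adjusted p = 0.858, edgeR), which ran from -0.0559 without DOX- replicate 3 to -0.0021 without DOX+ replicate 1.

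None of the 3 inhibitors passed the test, and their intervals were narrow. TIMP1 had 788, 830 and 836 CPM in DOX- replicates 1, 2 and 3 and 817, 757 and 823 CPM in DOX+ replicates 1, 2 and 3. DOX+ replicate 2 was the lowest library of all, and the others overlapped. The log2 fold change was -0.03 (SE 0.0362, 95% interval -0.11 to 0.04, adjusted p = 0.713 by edgeR), and it was 0.0049 without DOX+ replicate 2. Removing the trend of counts on feature length gave 0.03, so the sign of the TIMP1 difference depended on these choices. By RT-qPCR on independent batches of IMR-90 cells, the study reports a significant decrease of TIMP1 after ZNF469 knockdown. The cause of this difference from the counts was not tested.

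TIMP2, the inhibitor that takes part in proMMP2 activation, had the lowest coefficient of variation of the 10 genes in both groups. Its level was 1513, 1513 and 1520 CPM in DOX- replicates 1, 2 and 3 and 1552, 1550 and 1541 CPM in DOX+ replicates 1, 2 and 3. The coefficient of variation is set here against the value from counting. It was 0.257% in DOX- and 0.386% in DOX+, below the 0.436% and 0.425% that counting alone gives. The groups did not overlap, but libraries this close within a group make the separation look firmer than counting error allows. The log2 fold change was only 0.03 (SE 0.0215, 95% interval -0.02 to 0.08), with an adjusted p of 0.550 by edgeR and 0.1 by the exact permutation test.

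TIMP3 binds to the matrix and also inhibits several ADAM and ADAMTS proteases. Its level was 378, 362 and 388 CPM in DOX- replicates 1, 2 and 3 and 377, 388 and 365 CPM in DOX+ replicates 1, 2 and 3. The groups overlapped, with a log2 fold change of 0.0036 (95% interval -0.08 to 0.08, adjusted p = 0.976 by edgeR). Among the 5 genes of the highest FPKM, MMP2, MMP14, TIMP1, TIMP2 and TIMP3, the 95% intervals together ran from 91.0% to 106% of the DOX- level, so a larger change than that lay outside the interval of each.

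The balance of protease to inhibitor transcripts was also compared, as a description with no test. The 7 proteases summed to 406 ± 2.34 FPKM in DOX- and 406 ± 11.6 FPKM in DOX+, and the 3 inhibitors to 1273 ± 19.4 FPKM and 1296 ± 23.7 FPKM (SD, n = 3 each). The ratio of the sums was 0.326, 0.313 and 0.317 in DOX- replicates 1, 2 and 3 and 0.307, 0.314 and 0.319 in DOX+ replicates 1, 2 and 3. The groups overlapped, and the DOX+ mean was 98.4% of the DOX- mean. Inhibitor transcripts were thus in excess over protease transcripts in every library, although transcript levels do not give protein ratios. The make-up of the protease sum differed slightly, with MMP14 at 46.9% in both groups, MMP2 at 39.1% in DOX- and 38.0% in DOX+, and MMP1 at 10.0% and 11.1%, and for MMP2 and MMP1 the groups did not overlap. These 2 genes had also separated in CPM, where 20.3% of all features did. Of the inhibitor sum TIMP1 held 64.9% and 63.9%, TIMP2 29.3% and 30.2%, and TIMP3 5.77% and 5.83%, in DOX- and DOX+, and all 3 overlapped.

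Pairs of a protease and an inhibitor were set against each other in the same way. MMP1 over TIMP1 was 0.0492 ± 0.000293 in DOX- and 0.0543 ± 0.00269 in DOX+ (SD, n = 3 each), 110% of the DOX- value, and all DOX+ libraries were higher. MMP2 over TIMP2 was 0.425 ± 0.00123 in DOX- and 0.395 ± 0.0129 in DOX+, or 92.9%, and all DOX+ libraries were lower. MMP14 over TIMP2 was 0.510 ± 0.0110 and 0.486 ± 0.0188, and the groups overlapped. MMP2 over MMP14 overlapped as well, at 0.834 ± 0.0170 and 0.812 ± 0.00581. MMP1, MMP2 and TIMP2 had themselves separated in CPM, as 20.3% of all features did. The separated ratios reuse these genes and are not a further result about the balance. How often ratios of other gene pairs separate was not computed.

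**Figure D4:**
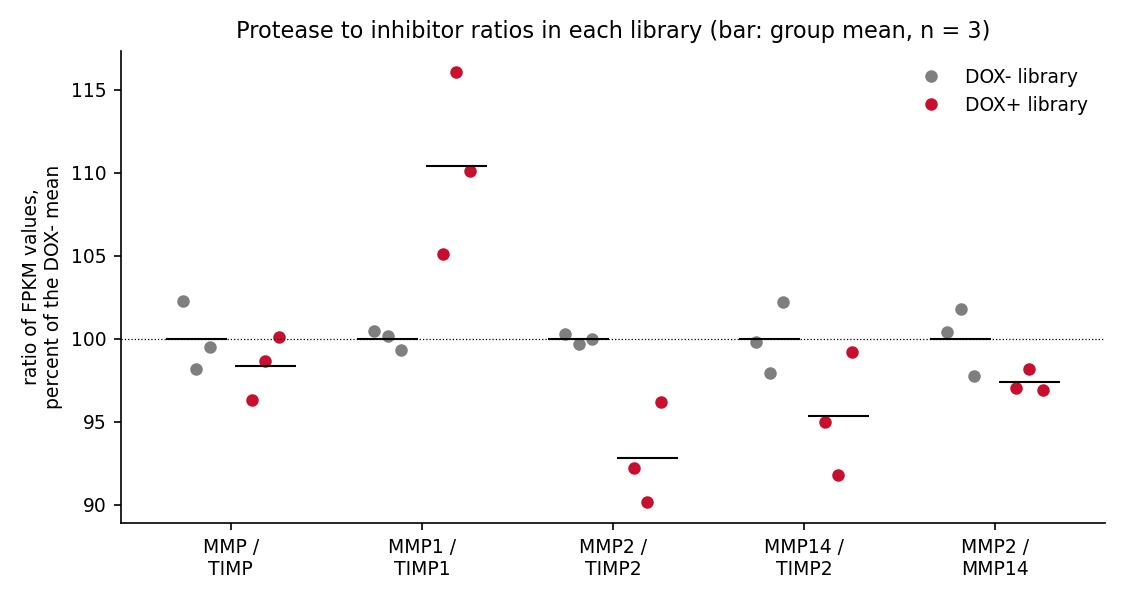
Ratios of FPKM values in each library, from the sum of the 7 proteases over the sum of the 3 inhibitors to single protease and inhibitor pairs, with each group's mean. The ratio of the sums overlaps between the groups (0.319 in DOX- and 0.313 in DOX+), whereas MMP1 over TIMP1 is higher and MMP2 over TIMP2 lower in all DOX+ libraries. The separated pairs reuse MMP1, MMP2 and TIMP2, whose groups already did not overlap in CPM.

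Fibrillar collagens, substrates of MMP1 and MMP14, fell in the same libraries. By edgeR's quasi-likelihood test, COL1A1 fell by 0.69 on the log2 scale (adjusted p = 1.66e-09), COL1A2 fell by 0.50 (adjusted p = 1.74e-09) and COL3A1 fell by 0.50 (adjusted p = 1.13e-06). Their 95% intervals ran from -0.74 to -0.43, whereas the lowest bound among MMP2, MMP14, TIMP1, TIMP2 and TIMP3 was -0.14. Over all 10 genes the lowest bound was -0.59, that of the low-count MMP3, so the contrast with the collagens does not extend to MMP3. Set against COL1A1 in FPKM, MMP1 was at 174% of its DOX- ratio, MMP14 at 157%, MMP2 at 153%, TIMP1 at 158% and TIMP2 at 165%. For each of these 5 ratios the DOX+ libraries were all above the DOX- libraries, and COL1A1 is the denominator of them all. COL1A1 itself went from 2077 FPKM in DOX- to 1319 FPKM in DOX+. The ratio of an unchanged gene would rise as well, so the separation says little of the 5 numerators.

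Other genes of the pathway were taken from a list of 56, made up of the other MMPs and TIMP4, activators, other inhibitors and clearance receptors, inducers, AP-1 and ETS factors, and TIMP-sensitive ADAM and ADAMTS proteases. Of the 56, 40 had enough counts to be tested, 18 nominally higher and 22 lower in DOX+, with a median log2 fold change of -0.0296. By edgeR's adjusted p 1 rose and 0 fell, where 0.400% of all features rose and 0.715% fell. At an unadjusted p under 0.05, 3 were higher and 7 lower, where 7.31% and 7.69% of all features were. DESeq2 called 4 of the 40 at an adjusted p under 0.05, where it called 3.18% of all features. They were RECK, FURIN and ADAM19, higher, and PLAU, lower. Limma-voom called 1 of the 40, where it called 1.10% of all features.

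The gene that rose was RECK, a membrane-anchored glycoprotein known as an inhibitor of MMP2, MMP9 and MMP14. RECK (ENSG00000122707) lies at chr9:36036913-36124455 on the plus strand and has 21 exons in its canonical transcript. It had 127, 132 and 132 CPM in DOX- replicates 1, 2 and 3 and 150, 152 and 155 CPM in DOX+ replicates 1, 2 and 3. All DOX+ libraries were above all DOX- libraries, and both groups were tight. The means were 131 ± 2.84 CPM and 152 ± 2.66 CPM (SD, n = 3 each), a log2 fold change of 0.22 (SE 0.0381, 95% interval 0.14 to 0.30) with an adjusted p of 0.012 by edgeR. The adjusted p was above 0.05 without DOX- replicate 1 (log2 fold change 0.20) and without DOX+ replicate 1 (0.23), to at most 0.0855. The level of RECK, 26.4 FPKM over the 6 libraries, was below those of MMP14, MMP2 and all 3 TIMPs. RECK is 1 of 5 other inhibitors and clearance receptors, all tested, of which 2 were nominally higher and 3 lower. At an unadjusted edgeR p under 0.05, 1 was higher and 1 lower, where 7.31% and 7.69% of all features were. The lower 1 was A2M, with a log2 fold change of -0.23 (95% interval -0.39 to -0.07, adjusted p = 0.161 by edgeR).

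None of the other MMPs or TIMP4 passed edgeR's test. Of 16 further MMP genes 5 had enough counts to be tested, and the 2 leading in FPKM by the naming rule were the membrane-type MMP17, with 2.73 FPKM and a log2 fold change of -0.06 (adjusted p = 0.863), and MMP15, with 0.778 FPKM and 0.05 (adjusted p = 0.918). TIMP4 had 11 to 18 counts per library, and its log2 fold change of -0.11 had a 95% interval from -1.03 to 0.81 (adjusted p = 0.935). The other 11 MMP genes, among them the gelatinase MMP9 and the collagenase MMP13, had too few counts to be tested.

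Among activators, 5 of 7 were tested and 0 passed edgeR's adjusted p, with 3 at an unadjusted p under 0.05, where 15.0% of all features were. PLAU, the urokinase that starts the plasmin cascade, had 170 FPKM and a log2 fold change of -0.10 (95% interval -0.17 to -0.04, adjusted p = 0.150), with all DOX- libraries above all DOX+ libraries. The convertase PCSK7 had 66.3 FPKM and a log2 fold change of 0.04 (adjusted p = 0.660). The clearance receptor LRP1, which removes protease and inhibitor complexes from the cell surface, had 38.8 FPKM and a log2 fold change of -0.06 (adjusted p = 0.473).

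Among inducers and transcription factors of the MMP genes, 0 passed edgeR's adjusted p. Of 6 inducers 3 were tested. BSG (CD147, a surface protein known to induce MMPs) had 398 FPKM and a log2 fold change of -0.07 (adjusted p = 0.330), and TGFB1 had 33.5 FPKM and -0.03 (adjusted p = 0.845). All 10 AP-1 and ETS factors were tested, 3 higher and 7 lower, and 3 of the lower ones were at an unadjusted p under 0.05, where 7.69% of all features were lower at that p. FOSL1 had 178 FPKM and a log2 fold change of -0.13 (95% interval -0.23 to -0.03, adjusted p = 0.213), and JUN had 52.3 FPKM and -0.05 (adjusted p = 0.553). The groups overlapped for both.

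All 11 ADAM and ADAMTS proteases that TIMPs can inhibit were tested and 0 passed edgeR's adjusted p. At an unadjusted edgeR p under 0.05 there was 1, ADAM19, where 15.0% of all features were. ADAM9, with 214 FPKM, had a log2 fold change of 0.02 (adjusted p = 0.725), and ADAMTS1, with 111 FPKM, had -0.03 (adjusted p = 0.659). In FPKM, ADAM9 lay above MMP14 and ADAMTS1 above TIMP3.

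**Figure D5:**
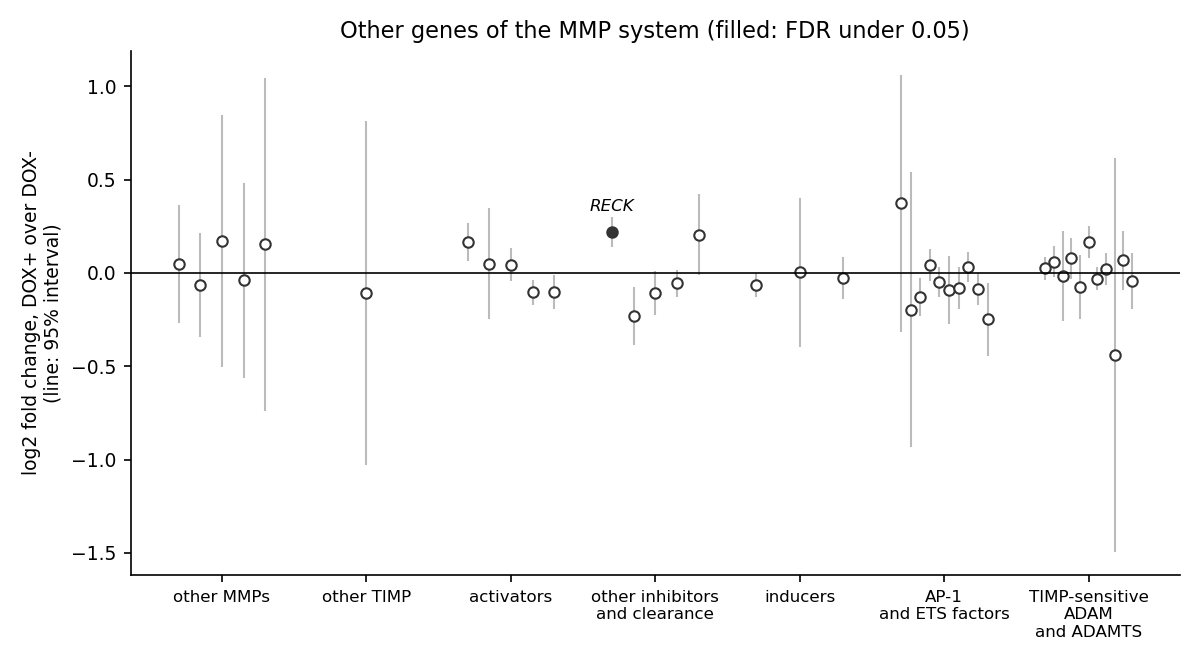
Log2 fold change of DOX+ over DOX- with 95% intervals for the 40 tested genes of the pathway list, grouped by role. RECK (0.22) is the only gene whose adjusted p by edgeR is under 0.05, and the intervals of low-count genes such as TIMP4 (-1.03 to 0.81) are among the widest.

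For the most abundant protease and inhibitor, the genes with the most similar profile over the 6 libraries were found among 11247 genes, by the root mean square difference of centred log2 CPM. For MMP14 these were NUCB1 (0.0078), PRPF8 (0.0089) and ALKBH5 (0.00996), against a median of 0.0910 over the genes compared. For TIMP1 they were BCAP31 (0.0055), WRNIP1 (0.0113) and PPIL2 (0.0118), against a median of 0.0949. None of these 6 genes passed edgeR's adjusted p.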

How the data were processed

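Poly(A)-selected RNA-seq libraries of 6 samples, 3 DOX- and 3 DOX+, were grouped by their titles. The authors filtered reads on quality, and used HISAT2 and StringTie on the 150 bp pairs with GRCh38; versions and strand setting are not given in the sources used here. The deposited counts are whole numbers per feature without normalization, and the authors also deposited FPKM values. The table has 23754 features, 3780 of them loci assembled by the authors, after 17 lines holding no feature were dropped.

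Counts were analysed with edgeR 4.0.16 in R 4.3.3: filterByExpr (minimum count 10), TMM factors, a design of group alone and the quasi-likelihood test. Benjamini-Hochberg adjustment took in 13991 features, with a call at an adjusted p under 0.05. The study states an FDR of 0.05 and an absolute log2 fold change over 1 but not the tool. Each standard error is the size of the log2 fold change over the square root of F. FPKM were used for levels between genes and for ratios, with no test. Permutation tests were exact and two-sided. With 34057675 to 36120260 counts per library, counting error is small except for genes of low counts, and intervals do not cover variation between cultures. Alternatives were DESeq2 1.42.0, limma-voom (limma 3.58.1), other filters and scalings, a length trend, leaving out unannotated loci or each library, and the replicate number as a block. Scripts were tested on simulated counts.

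The members and lists were chosen with earlier results of these data known. Named genes are the 10 members, ZNF469, 3 fibrillar collagens, pathway genes past an adjusted p of 0.05, the 2 of highest FPKM per role, and the 3 closest profiles of the highest protease and inhibitor. FURIN, ADAM19, ADAMTS4, A2M, MMP9, fibroblast markers and other genes outside this rule were named after their values were seen. No protein sequence was used here.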

Additional observations from a re-analysis of the deposited data

How the results depend on the processing

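Over 15 alternatives, the 10 MMP and TIMP genes passed an adjusted p of 0.05 in 0 of 150 fits, with a lowest adjusted p of 0.138, and 7 fits changed a sign. The signs that changed were those of MMP3, TIMP1 and TIMP3. Leaving out 1 library at a time gave log2 fold changes from -0.25 to 0.16 for MMP3, -0.0596 to 0.0049 for TIMP1, -0.0225 to 0.0269 for TIMP3, -0.0209 to 0.0928 for MMP15, -0.12 to 0.0298 for MMP17, -0.31 to 0.0566 for TIMP4 and -0.0789 to 0.0179 for TGFB1. With the length trend removed, the values were 0.0339 for TIMP1 and -0.0214 for TIMP3. The protease to inhibitor ratio stood at 97.5% to 99.5% of DOX- without 1 library at a time and at 95.8% without TIMP1, against 98.4% with all libraries and genes. Summed from TMM-normalized CPM, which is not scaled to length, the ratio stood at 96.8%. The cause of these shifts was not tested. For RECK, 13 of the 15 alternatives kept the call, and leaving out DOX- replicate 1 or DOX+ replicate 1 ended it. Pathway genes called higher numbered 1, and 2 without a filter, 2 with library size scaling, 3 with DESeq2 and 0 to 1 without 1 library at a time, and genes called lower numbered 0, and 1 with DESeq2.

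Over all features, 56 were called higher and 100 lower by the edgeR fit reported. There were 127 and 163 without a filter, and 218 and 227 with DESeq2. Library size scaling gave 88 higher and 77 lower and moved the median of all features to 0.0189. Without 1 library at a time, 20 to 69 were higher and 54 to 92 lower.

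With the replicate number as a block, 135 features were called higher and 157 lower, and 2 pathway genes higher, RECK and ADAM19, while 0 of the 10 MMP and TIMP genes were called. Over 13991 features, the deviations of same-numbered libraries from their group means correlated with r of -0.0241, -0.0352 and 0.0363. A correlation over all features cannot settle whether libraries of the same number shared a batch, and this was not tested. Low counts limit MMP3 (48 to 84 counts) most among the 10 genes, and in the pathway list ADAMTS4 (7 to 24 counts, SE 0.487) and TIMP4 (11 to 18 counts, SE 0.426).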

Other observations

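Some loci that share a name with an annotated MMP gene carried more reads than that gene. An unannotated locus that the authors assembled, whose similarity column names MMP23B, had 336 to 431 counts per library, or 4.37 to 5.63 FPKM, whereas the annotated MMP23B had 25 to 46 counts, or 0.428 to 0.803 FPKM. By edgeR's quasi-likelihood test neither passed (log2 fold change 0.02, adjusted p = 0.950 for the locus, and 0.17, adjusted p = 0.849 for MMP23B). MMP24OS, which lies over MMP24 on the opposite strand, had 2174 to 2330 counts per library and MMP24 had 63 to 119. The log2 fold changes were -0.03 for MMP24OS (adjusted p = 0.823) and -0.04 for MMP24 (adjusted p = 0.958), and since use of strand is not given in the sources used here, reads of this pair cannot be told apart. These loci were chosen after their values were seen.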
